A study of Mus musculus with 16 samples.

Results

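The 10 genes described here are core parts of the circadian clock and its output: Arntl, Clock, Npas2, Per2, Per3, Cry1, Nr1d1, Nr1d2, Dbp and Tef. They were listed by name and each matched 1 of the 54838 gene identifiers of the count tables. Their messenger RNA was measured by bulk sequencing in 16 liver samples, here called livers, of male wild-type C57BL/6J mice, in 4 groups. In the CCl4 group (n = 3), mice had received carbon tetrachloride, a solvent that injures hepatocytes, mixed 1:1 with olive oil, by injection into the peritoneum at 2 µl per g of body weight, and livers were taken after 3 days. The olive oil group (n = 3) had received olive oil alone at 2 µl per g by the same route, with livers also taken after 3 days. The PH day 3 group (n = 5) held livers taken 3 days after partial hepatectomy (PH), the surgical removal of part of the liver. The PH day 0 group (n = 5) held the liver removed at that operation. All 4 groups share sex and strain, and the PH groups had no injection. The labels used here give no clock hour, feeding state or age, so an effect of the hour of sampling and an effect of treatment cannot be told apart in any comparison below.

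The mammalian clock is a feedback loop of transcription and translation that runs in nearly every cell, hepatocytes included. The proteins of Arntl (also called Bmal1) and of Clock or its paralog Npas2 pair up and activate genes that carry E-boxes, among them the Per, Cry, Nr1d, Dbp and Tef genes. The Per and Cry proteins then block that pair, and the Nr1d proteins (Rev-erbs) repress Arntl and Npas2 through elements called ROREs. Dbp and Tef encode transcription factors that bind D-boxes and pass the rhythm on to liver metabolism. In mouse liver, Dbp and Arntl messenger RNA are high at roughly opposite times of day.

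Promoter sequence is shown for the members with an exact match to one of these elements, since it is through them that the loop is wired. A RefSeq table (GRCm38.p6) gave windows of 300 bases, 250 before and 50 after each start, for 9 of the 10 genes (13 windows). Per2 had no entry. The E-box searched was CACGTG, found in 7.15% of all 32851 windows, the E-prime box CACGTT (4.68%), the D-box TTATGTAA (0.938%) and the RORE TAGGTCA (2.61%), each on both strands. Matches do not show binding, and genes without a match lack only these letters in these windows. Per3 has D-boxes starting 205 and 158 bases upstream (chr4:151044666-151044915, minus strand). Tef has an E-box 127 bases upstream of the start shown (chr15:81802423-81802672, plus strand) and another 138 bases upstream of its second start. Cry1 has an E-box 60 bases upstream and, on the other strand and so read as AACGTG, an E-prime box 79 bases upstream (chr10:85185055-85185304, minus strand). Nr1d1 has an E-prime box 28 bases upstream, also on the other strand (chr11:98775378-98775627, minus strand). Arntl has a RORE starting at base 31 of a transcript (30 bases at chr7:113207530-113207559, plus strand). Capitals mark these elements, 5′ to 3′ on the strand of the gene.
Per3: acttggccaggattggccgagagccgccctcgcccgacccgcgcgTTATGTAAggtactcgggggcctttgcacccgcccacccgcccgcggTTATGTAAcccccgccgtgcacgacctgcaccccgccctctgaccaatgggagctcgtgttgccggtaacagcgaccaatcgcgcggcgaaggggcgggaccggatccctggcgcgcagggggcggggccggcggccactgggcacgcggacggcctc
Tef: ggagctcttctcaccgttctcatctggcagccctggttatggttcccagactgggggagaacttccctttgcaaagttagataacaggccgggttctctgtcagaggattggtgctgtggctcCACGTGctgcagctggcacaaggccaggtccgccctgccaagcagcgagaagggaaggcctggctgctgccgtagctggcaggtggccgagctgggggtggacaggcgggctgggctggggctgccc
Cry1: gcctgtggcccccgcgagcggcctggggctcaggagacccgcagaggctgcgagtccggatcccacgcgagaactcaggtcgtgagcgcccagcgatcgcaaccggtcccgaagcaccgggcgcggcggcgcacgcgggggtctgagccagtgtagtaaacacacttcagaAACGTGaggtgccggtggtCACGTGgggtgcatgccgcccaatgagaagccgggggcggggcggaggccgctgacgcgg
Nr1d1: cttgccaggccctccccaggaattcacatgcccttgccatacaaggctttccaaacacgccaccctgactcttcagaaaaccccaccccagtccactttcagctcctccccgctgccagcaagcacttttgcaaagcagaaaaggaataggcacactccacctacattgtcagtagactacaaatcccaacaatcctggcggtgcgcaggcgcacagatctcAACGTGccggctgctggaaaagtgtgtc
Arntl: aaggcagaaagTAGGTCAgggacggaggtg

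CCl4 libraries held 4738196 to 6218526 counts, olive oil libraries 4295169 to 5221957, PH day 3 libraries 2795909 to 4391002 and PH day 0 libraries 3271398 to 8647503, so that 3 counts in 1 library stood for 0.368 to 1.03 CPM. CPM here are counts scaled to a common library size with TMM, a factor per library that allows for differences in composition. Summed CPM of 6 hepatocyte marker genes such as Alb, none of them at 0, spanned 89002 to 109209 in CCl4 livers, 96702 to 106879.7 in olive oil livers, 104391 to 122349 in PH day 3 livers and 70358 to 88355 in PH day 0 livers. Most of each sum was Alb alone, at 66760 to 81077 CPM in CCl4 and 70024 to 79977 CPM in olive oil livers. In the PH groups Alb had 85909 to 100360 CPM at day 3 and 47853 to 63636 CPM at day 0. CCl4 replicate 1 stood apart from its group: the chi-square of counts per degree of freedom was 71.7 and 72.3 against the other replicates, which differed from each other by 8.97. The file headers place all 16 libraries in 1 lane, and the injection and PH samples in 2 experiments. By the labels, each of the 4 groups had second index tags found in no other group. Index and group therefore cannot be told apart in any comparison. Scaling by library size alone moved the median log2 change of all genes to 0.46 against 0.01 for CCl4 over olive oil, and to 0.13 against -0.01 for PH day 3 over day 0. It put 87.5% against 49.2% of called genes on the higher side for CCl4, 78.9% against 54.8% for PH, 75.9% against 27.5% for the difference of the responses and 37.2% against 56.9% for olive oil over PH day 0. No member changed sign under any scaling.

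**Figure D1:**
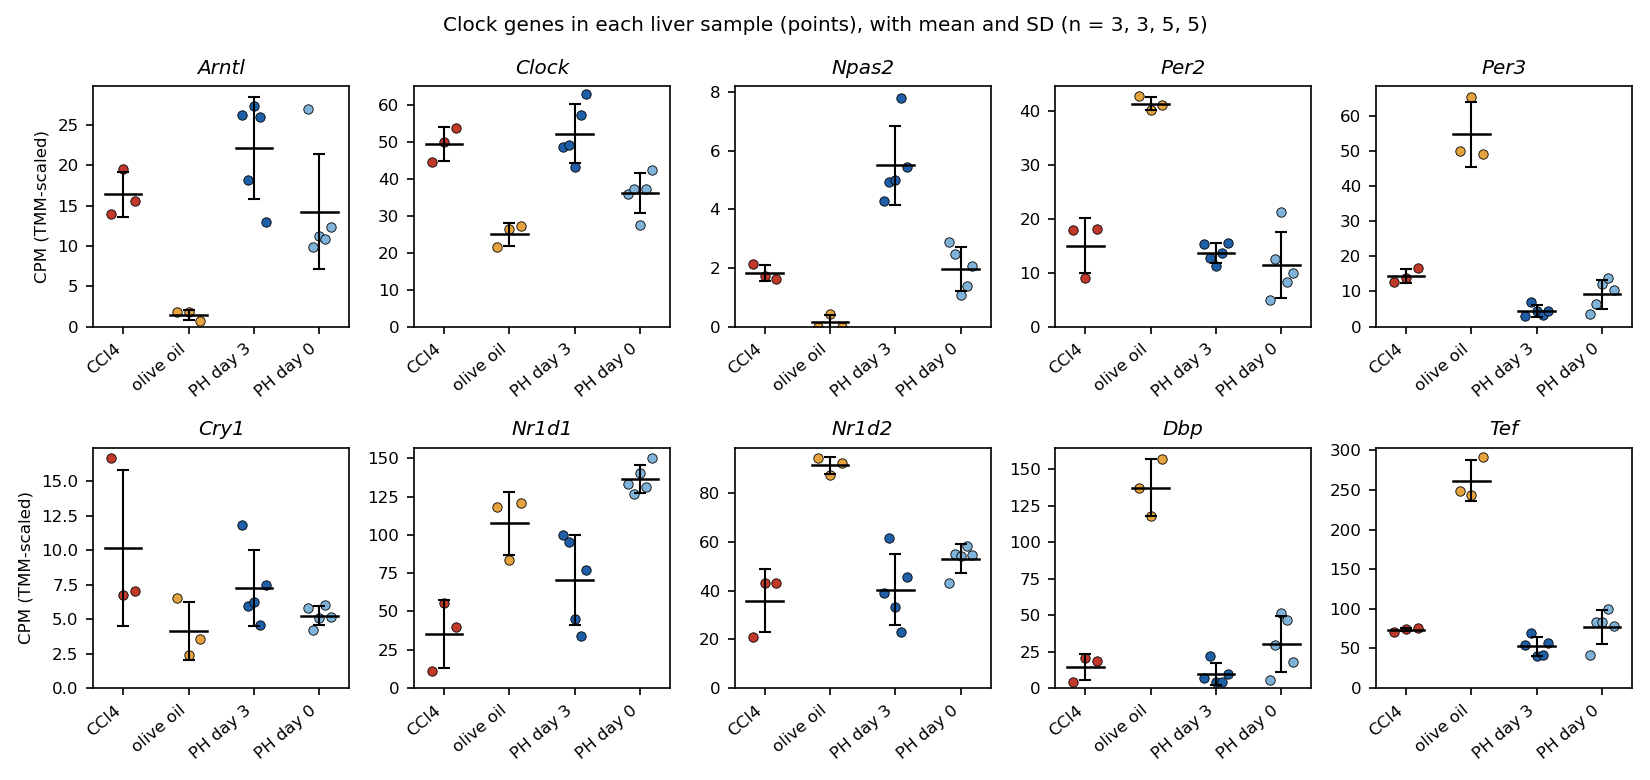
TMM-scaled CPM (y axis) of the 10 clock genes in each of the 16 livers (points), by group, with mean and SD as bars (n = 3, 3, 5 and 5). The 3 olive oil livers lie above every other liver for Per2, Per3, Nr1d2, Dbp and Tef and below every other liver for Arntl, Clock and Npas2.

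Across the 4 groups, the olive oil livers were the ones that stood apart in clock gene expression. For 8 of the 10 members the 3 olive oil livers lay outside the range of the other 13 livers, which held for 4.7% of all 11868 genes. The 5 higher genes were the repressors Per2, Per3 and Nr1d2 and the output factors Dbp and Tef. The 3 lower genes were the activators Arntl, Clock and Npas2. For the repressors Cry1 and Nr1d1 the olive oil livers overlapped with the others. The CCl4 livers lay outside the range of all others for 0 of the 10 members (9.33% of all genes), PH day 3 for Npas2 alone (0.851%) and PH day 0 for Nr1d1 alone (0.699%). The CCl4 livers did not overlap with PH day 3 for 3 members (16.8% of all genes), with Per3 and Tef higher and Npas2 lower in CCl4. They did not overlap with PH day 0 for another 3 (29.7% of all genes), with Clock and Cry1 higher and Nr1d1 lower in CCl4. These comparisons of ranges were chosen after the values were seen and carry no test.

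Per length, in RPKM (CPM divided by the exon length in kilobases), the leading gene differed between groups. In CCl4 livers Nr1d1 led at 11.5 ± 7.23 RPKM, followed by Tef at 9.37 ± 0.287 RPKM, with overlapping ranges (SD, n = 3). In olive oil livers Dbp led at 45.9 ± 6.53 RPKM, with no overlap with Nr1d1 at 34.9 ± 6.71 RPKM, which overlapped with Tef at 33.2 ± 3.25 RPKM (SD, n = 3). At PH day 3 Nr1d1 led at 22.9 ± 9.57 RPKM and overlapped with Nr1d2 at 7.48 ± 2.67 RPKM (SD, n = 5). At PH day 0 Nr1d1 led at 44.3 ± 2.93 RPKM, above all values of Dbp at 10.1 ± 6.35 RPKM (SD, n = 5). The lowest gene was Npas2 in CCl4, olive oil and PH day 0 livers (0.380 ± 0.0541, 0.0305 ± 0.0528 and 0.412 ± 0.157 RPKM), and Per3 at PH day 3 (0.457 ± 0.168 RPKM). The neighbour above Npas2 did not overlap with it in CCl4 and in olive oil, and did at PH day 0.

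CCl4 livers were compared with olive oil livers to ask what differed 3 days after toxic injury. The activators Arntl, Clock and Npas2 were higher in CCl4 livers, and Per2, Per3, Nr1d2, Dbp and Tef were lower. Thus 3 of 10 members rose (11.3% of all 11337 genes tested) and 5 fell (11.6%), or 8 of 10 against 22.9% of all genes either way, while Cry1 and Nr1d1 did not pass. The ranges of the groups did not overlap for 10 of 10 members, 4 higher (21.4% of all genes) and 6 lower (20.2%), against 41.6% of all genes either way. The median log2 change was -1.43 over the members and 0.01 over all genes. A call is a Benjamini-Hochberg adjusted p under 0.05 from edgeR over all genes tested, and changes are log2 fold changes ± SE. Called genes numbered 2599 in all, and 1623, 1629 and 1492 without CCl4 replicate 2, olive oil replicate 1 or olive oil replicate 3.

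Arntl (ENSMUSG00000055116, chromosome 7, 113207465 to 113314126, plus strand of GRCm38) had 14.0, 19.5 and 15.6 CPM in CCl4 livers, against 1.75, 1.75 and 0.706 CPM in olive oil livers. The olive oil livers held 7, 8 and 3 reads of it, close to the floor of detection, and all CCl4 livers lay far above. Arntl was 3.51 ± 0.37 higher on the log2 scale, or 11.4-fold (adjusted p = 1.9e-04). Clock, whose protein pairs with that of Arntl (ENSMUSG00000029238, chromosome 5, 76209868 to 76304792, minus strand), had 44.7, 50.1 and 53.9 CPM in CCl4, against 21.5, 26.5 and 27.3 CPM in olive oil. It changed by 0.96 ± 0.16 (adjusted p = 0.002), or 1.95-fold. Npas2, which can stand in for Clock (ENSMUSG00000026077, chromosome 1, 39193731 to 39363236, plus strand), had 2.12, 1.72 and 1.63 CPM in CCl4, against 0, 0.438 and 0 CPM in olive oil. That is 34 reads against 2, a ratio of 11.5 with an exact 95% interval of 2.94 to 98.4 for counting error only. Its call (3.34 ± 0.93, adjusted p = 0.027) ended without CCl4 replicate 3 (3.41, adjusted p = 0.062), olive oil replicate 1 (2.86, adjusted p = 0.11) or olive oil replicate 3 (2.83, adjusted p = 0.11), and the adjusted p spanned 0.003 to 0.11 across alternatives. The fitted value was 6.31 when olive oil replicate 2, the only one with a read, was left out, which is no bound.

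Among the repressors, Per2, whose protein blocks Arntl and Clock (ENSMUSG00000055866, chromosome 1, 91415982 to 91459324, minus strand), had 18.0, 9.08 and 18.1 CPM in CCl4, against 42.8, 40.3 and 41.2 CPM in olive oil. The olive oil livers lay close together and above all CCl4 livers, a change of -1.50 ± 0.25 (adjusted p = 0.0021). Per3, a less essential relative of Per2 (ENSMUSG00000028957, chromosome 4, 151003652 to 151044665, minus strand), had 12.7, 13.9 and 16.6 CPM in CCl4, against 49.8, 65.3 and 49.0 CPM in olive oil. It fell by 1.94 ± 0.18 on the log2 scale (adjusted p = 1.0e-04), the smallest p of the repressors. Cry1, the partner of the Per proteins (ENSMUSG00000020038, chromosome 10, 85131700 to 85185064, minus strand), had 16.7, 6.75 and 7.01 CPM in CCl4, against 6.51, 2.41 and 3.53 CPM in olive oil. Its groups were separated by a narrow gap and the change of 1.26 ± 0.48 did not pass (adjusted p = 0.089). It passed with library size scaling, without a filter and in a fit of all 4 groups (1.26 to 1.63, adjusted p = 0.011 to 0.023, and 0.011 to 0.25 over alternatives).

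The nuclear receptor gene Nr1d1, or Rev-erb alpha (ENSMUSG00000020889, chromosome 11, 98767932 to 98775333, minus strand), had 11.4, 55.4 and 39.6 CPM in CCl4, against 118, 83.8 and 121 CPM in olive oil. CCl4 replicate 1 was the lowest by far, and the change of -1.60 ± 0.56 did not pass (adjusted p = 0.11). Without that library Nr1d1 passed at -1.18 (adjusted p = 5.9e-04, and 5.9e-04 to 0.25 over alternatives), as it did with DESeq2, limma-voom and the 4-group fit. Its relative Nr1d2, or Rev-erb beta (ENSMUSG00000021775, chromosome 14, 18204054 to 18239127, minus strand), had 20.9, 43.3 and 43.3 CPM in CCl4, against 94.6, 87.5 and 92.3 CPM in olive oil. It changed by -1.36 ± 0.25 (adjusted p = 0.0044), and with library size scaling by -0.86 (adjusted p = 0.069, and 1.5e-13 to 0.069 over alternatives).

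Of the output factors, Dbp (ENSMUSG00000059824, chromosome 7, 45705088 to 45710203, plus strand) had 4.02, 20.4 and 18.3 CPM in CCl4, against 137, 118 and 157 CPM in olive oil. Each olive oil liver held several times the Dbp of any CCl4 liver, and the change was -3.26 ± 0.55 (adjusted p = 0.012), or 9.57-fold lower in CCl4. Tef (ENSMUSG00000022389, chromosome 15, 81802421 to 81826863, plus strand) had 71.3, 74.1 and 75.8 CPM in CCl4, against 249, 244 and 291 CPM in olive oil. It changed by -1.84 ± 0.15 (adjusted p = 5.3e-05), with the smallest p of the members and little spread within CCl4. Dbp by contrast was 4.02 CPM in CCl4 replicate 1, far below replicates 2 and 3. Arntl, Nr1d1, Dbp and Tef have exons that overlap a gene on the opposite strand, and the counting used strand.

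In the same comparison, markers of other cells moved too. Summed over 6 genes of dividing cells such as Mki67, CCl4 livers had at least 228 CPM (median 327), against 4.82 to 6.59 CPM in olive oil livers, and 6 of 6 rose. Summed over 7 monocyte and macrophage genes, the CCl4 range was 222 to 278 CPM, against a range in olive oil livers of 37.0 to 101 CPM with Ly6c2 at 0, and 5 of 6 tested rose. Over 7 stellate cell genes, the sums were 249 to 465 CPM in CCl4 and 139.6 to 164 CPM in olive oil, with 3 of 7 risen. Red blood cell transcripts (5 genes) summed to 134 to 242 CPM in CCl4 livers and to 437 to 515 CPM in olive oil livers, and 5 of 5 fell. The 5 cholangiocyte genes summed to 175 to 293 CPM in CCl4 livers and to 53.3 to 108 CPM in olive oil livers, with Spp1 risen of 2 tested. Most of that sum was Spp1 itself (154 to 277 CPM in CCl4, 44.5 to 102 CPM in olive oil). Sox9, the other gene tested, did not pass (adjusted p = 0.096). Over 6 endothelial genes the sums overlapped (90.1 to 106 CPM in CCl4, 91.4 to 99.8 CPM in olive oil), with Lyve1 risen, as they did over 5 Kupffer cell genes (192 to 323 CPM in CCl4, 124 to 373 CPM in olive oil), with Timd4 fallen. The 4 neutrophil genes summed to 1.96 to 54.8 CPM in CCl4 and to 0.250 to 11.2 CPM in olive oil, where Ly6g was at 0. The part of these cells in the clock gene differences was not tested. In bulk tissue, fewer cells of a type and less RNA per cell cannot be told apart.

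**Figure D2:**
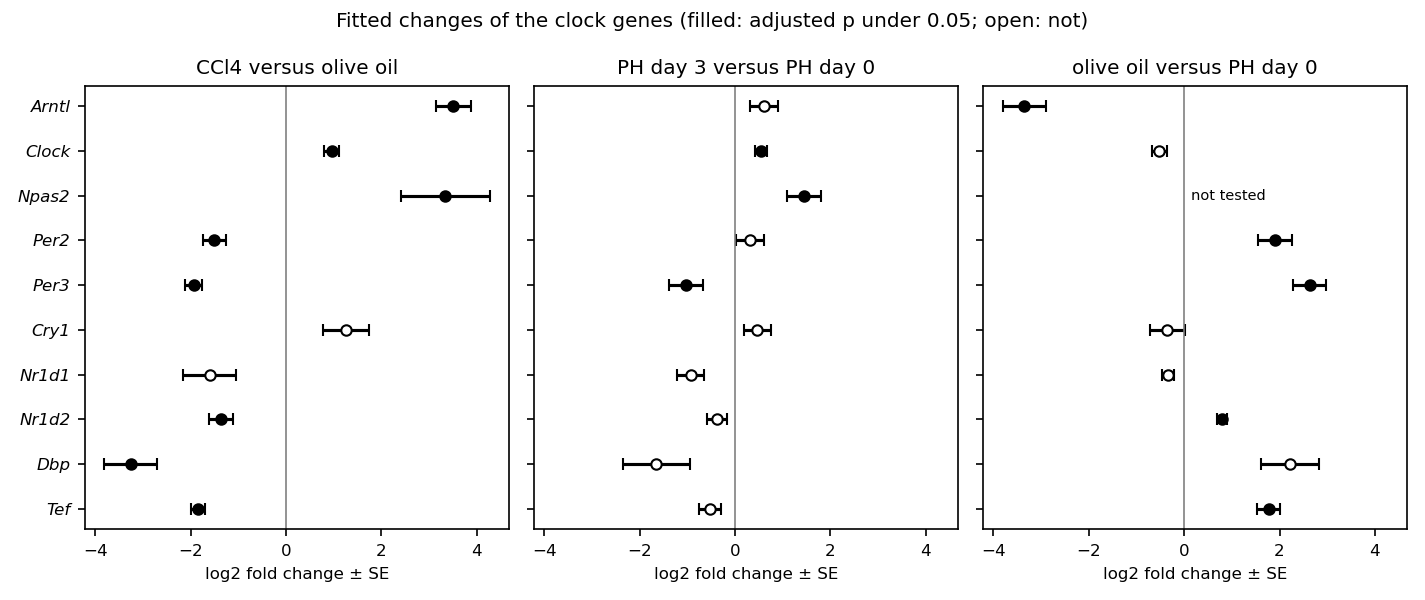
Fitted log2 fold changes ± SE (x axis) of the 10 clock genes (rows) in the comparisons, with filled points at an adjusted p under 0.05. In the panel of CCl4 over olive oil 8 of 10 points are filled, against 3 of 10 for PH day 3 over day 0. Npas2 has no point for olive oil over PH day 0, where the filter on low counts removed it.

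PH day 3 livers were compared with PH day 0 livers to ask what differed during regrowth after surgery. Clock and Npas2 rose and Per3 fell, and the other 7 members did not pass. That is 2 of 10 higher (9.73% of all 10546 genes tested) and 1 lower (8.01%), or 3 of 10 against 17.7% of all genes either way. The count was 5 without PH day 0 replicate 12 and 5 without PH day 3 replicate 13. The groups did not overlap for 3 members, Clock and Npas2 higher (6.75% of all genes) and Nr1d1 lower (6.62%), against 13.4% either way. The median log2 change was -0.03 over the members and -0.01 over all genes.

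Clock had 48.6, 49.4, 43.2, 57.5 and 63.2 CPM at PH day 3, against 36.1, 37.4, 27.7, 37.3 and 42.5 CPM at PH day 0 (replicates 12 to 16 in order). All day 3 livers lay above all day 0 livers, a change of 0.55 ± 0.13 (adjusted p = 0.0034). Npas2 had 4.29, 4.94, 5.01, 7.81 and 5.44 CPM at PH day 3, against 2.89, 2.48, 1.07, 1.38 and 2.06 CPM at PH day 0. It rose by 1.44 ± 0.36 (adjusted p = 0.0062), again with no overlap. Their partner Arntl had 26.2, 18.2, 27.3, 26.0 and 12.9 CPM at PH day 3, against 26.9, 9.91, 11.2, 10.8 and 12.3 CPM at PH day 0. Day 0 replicate 12 was as high as the highest day 3 livers, and the change of 0.61 ± 0.30 did not pass (adjusted p = 0.2). Without that library Arntl passed at 1.02 (adjusted p = 0.0015, and 0.0015 to 0.34 over alternatives).

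Per3 had 2.94, 7.01, 4.39, 3.22 and 4.42 CPM at PH day 3, against 3.67, 6.44, 12.0, 13.8 and 10.3 CPM at PH day 0. The ranges overlapped, with day 0 replicates 12 and 13 among the day 3 values. The change was -1.03 ± 0.35 (adjusted p = 0.04). The call ended in 7 of 10 fits with 1 library left out, namely without day 3 replicate 12, 14, 15 or 16 or day 0 replicate 14, 15 or 16 (-1.04 to -0.84, adjusted p = 0.068 to 0.14, and 0.0054 to 0.24 over alternatives). Per2 had 15.4, 12.7, 11.3, 13.6 and 15.6 CPM at PH day 3, against 4.98, 12.6, 21.3, 8.29 and 9.94 CPM at PH day 0. Day 0 spread around the narrower day 3 range, and the change was 0.31 ± 0.29 (adjusted p = 0.53). Cry1 had 11.8, 5.97, 6.27, 4.60 and 7.48 CPM at PH day 3, against 5.77, 4.21, 5.06, 5.99 and 5.14 CPM at PH day 0, a change of 0.47 ± 0.29 (adjusted p = 0.29).

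Nr1d1 had 100.1, 95.1, 45.4, 34.2 and 77.2 CPM at PH day 3, against 133, 127, 140.1, 131 and 150.1 CPM at PH day 0. All day 3 livers lay below the tight day 0 group, yet the change of -0.93 ± 0.28 did not pass (adjusted p = 0.055). It passed with DESeq2 and limma-voom (adjusted p = 5.2e-04 to 0.0029), and without day 3 replicate 12 (-1.11, adjusted p = 0.034), 13 (-1.07, adjusted p = 0.049) or 15 (-0.75, adjusted p = 0.017). The adjusted p was 5.2e-04 to 0.12 over alternatives. Nr1d2 had 38.9, 61.6, 33.2, 23.0 and 45.6 CPM at PH day 3, against 43.0, 55.0, 54.1, 58.5 and 54.8 CPM at PH day 0. Day 3 replicate 13 was above all day 0 livers, and the change was -0.38 ± 0.21 (adjusted p = 0.25). Without it Nr1d2 passed at -0.58 (adjusted p = 0.013, and 0.013 to 0.56 over alternatives).

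Dbp had 6.78, 22.3, 4.07, 4.14 and 9.52 CPM at PH day 3, against 5.64, 29.5, 51.2, 46.3 and 18.2 CPM at PH day 0. The day 0 livers spread 9.07-fold between the lowest and the highest, the widest of any member in that group, and the change of -1.65 ± 0.70 did not pass (adjusted p = 0.16). Tef had 53.8, 69.4, 40.1, 41.6 and 57.5 CPM at PH day 3, against 42.0, 82.8, 83.4, 100.2 and 77.8 CPM at PH day 0. Replicate 12 was the lowest day 0 liver for both output factors. The Tef change was -0.53 ± 0.23 (adjusted p = 0.16), and -0.70 without day 0 replicate 12 (adjusted p = 9.0e-04, and 9.0e-04 to 0.36 over alternatives). The summed dividing cell markers were 98.8 to 239 CPM at PH day 3, against 2.48 to 10.9 CPM at PH day 0 (6 of 6 rose). The 7 stellate cell genes summed to 173 to 487 CPM at PH day 3 and to 121 to 231 CPM at PH day 0, with Rgs5, Col1a1 and Pdgfrb risen. Among the 7, Des reached 187 CPM in 1 PH day 3 liver, against a group median of 6.67 CPM. The 6 endothelial genes summed to 94.5 to 161 CPM at PH day 3 and to 136 to 177 CPM at PH day 0, with Kdr and Clec4g fallen. The sums over 5 Kupffer cell genes overlapped (171 to 336 CPM at PH day 3, 139 to 213 CPM at PH day 0), with Marco alone risen. Of single markers of other types, Alb rose, and Alas2 (red blood cells), Apoa1 and Serpina1a (hepatocytes) fell. The part of these cells in the clock gene changes was not tested.

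**Figure D3:**
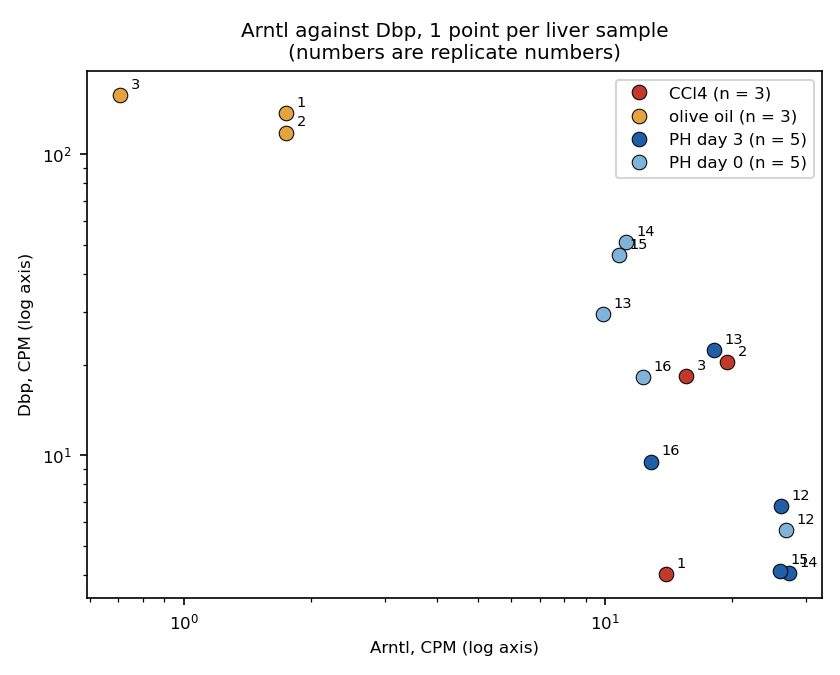
Dbp (y axis, CPM) against Arntl (x axis, CPM) on log axes, 1 point per liver with its replicate number. The 3 olive oil livers form a corner of low Arntl and high Dbp, while PH day 0 replicate 12 lies with the PH day 3 livers.

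The ratio of Arntl to Dbp in each liver set an activator against an output gene, as a description with no test. It was taken from read counts with a small constant added, without division by exon length (7523 bases for Arntl, 2993 for Dbp). A value of 0 therefore does not mark equal transcript levels. On the log2 scale the ratio was 1.77, -0.06 and -0.22 in CCl4 replicates 1 to 3, against -6.20, -5.99 and -7.58 in the olive oil livers. At PH day 3 it was 1.93, -0.30, 2.70, 2.62 and 0.43 in replicates 12 to 16, against 2.24, -1.56, -2.18, -2.08 and -0.55 at PH day 0. The olive oil livers lay below all 13 others, and PH day 0 replicate 12 lay within the range of the day 3 livers. That replicate was the lowest of its group for 5 members (Per2, Per3, Nr1d2, Dbp and Tef) and the highest for Arntl and Npas2, and its library was the deepest, at 8647503 counts. The label of PH day 0 replicate 12 carries an N after its number, as no other label of that group does. Some but not all PH day 3 labels carry the same N, and what it stands for is not stated. The part of depth, or of whatever the N marks, in the values of that replicate was not tested. CCl4 replicate 1 was the lowest of its group for 7 members and the highest for Npas2 and Cry1. In the PH day 3 group, replicate 13 was the highest for Per3, Nr1d2, Dbp and Tef.

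A direct test asked whether the response to CCl4 (CCl4 over olive oil) differed from the response to PH (day 3 over day 0). It differed for Arntl, which was more positive after CCl4, and for Per2 and Tef, which were more negative. That is 1 of 10 members in the positive direction (1.47% of all 11868 genes) and 2 in the negative (3.87%), or 5.33% of all genes either way. The difference was 2.92 ± 0.54 for Arntl (adjusted p = 0.0026), -1.78 ± 0.45 for Per2 (adjusted p = 0.025) and -1.27 ± 0.30 for Tef (adjusted p = 0.019). The call of Per2 ended without CCl4 replicate 2 (-1.50, adjusted p = 0.067), olive oil replicate 1 (-1.75, adjusted p = 0.063) or olive oil replicate 3 (-1.78, adjusted p = 0.062), with 0.0013 to 0.067 over alternatives. The call of Tef ended without CCl4 replicate 1 (-1.25, adjusted p = 0.052), CCl4 replicate 2 (-1.27, adjusted p = 0.057) or olive oil replicate 3 (-1.19, adjusted p = 0.062), with 0.0016 to 0.1 over alternatives. With library size scaling or no filter, and without CCl4 replicate 2 or olive oil replicate 3, 1 member passed. All called genes numbered 633, and 419 without CCl4 replicate 2 and 384 without olive oil replicate 3. For Dbp the difference was -1.56 ± 0.98 (adjusted p = 0.42), for Per3 -0.89 ± 0.45 (adjusted p = 0.3) and for Npas2 1.89 ± 0.93 (adjusted p = 0.27). Clock (0.44), Cry1 (0.82), Nr1d1 (-0.63) and Nr1d2 (-0.95) did not pass either, with adjusted p of 0.16 to 0.62, and Nr1d2 passed without PH day 3 replicate 15 (-1.10, adjusted p = 0.04, and 0.04 to 0.42 over alternatives). The experiment and the kind of challenge cannot be told apart in this difference.

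Olive oil livers were then compared with PH day 0 livers, the control group of each experiment. Arntl was lower in olive oil livers, and Per2, Per3, Nr1d2 and Tef were higher. Of 9 members tested, 4 rose (2.35% of all 10746 genes) and 1 fell (1.79%), against 4.14% of all genes called either way. The ranges did not overlap for 8 of the 9, 5 higher (6.36% of all genes) and 3 lower (5.86%) in olive oil, against 12.2% either way. The median log2 difference was 0.79 over the members and -0.00 over all genes. Genes called numbered 445, and 181 without olive oil replicate 3. The comparison uses the same olive oil livers as that with CCl4 and the same day 0 livers as that with PH day 3, so the comparisons are not independent. Injection, experiment and hour of sampling cannot be told apart in it.

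Arntl fell by 3.35 ± 0.45 on the log2 scale in olive oil (adjusted p = 2.3e-04), to a level 10.2-fold lower than at PH day 0. Npas2 was removed by the filter on low counts, with 2 reads in olive oil and 48 at PH day 0, a ratio of 0.0738 with an exact 95% interval of 0.00869 to 0.281. Where a setting kept it, Npas2 was called with the 1 CPM filter (-3.48 ± 0.93, adjusted p = 0.033), without a filter (adjusted p = 0.017), in the 4-group fit (adjusted p = 0.012) and without olive oil replicate 2 (-6.18, adjusted p = 0.031). It was not called without olive oil replicate 1 (-3.01, adjusted p = 0.12) or 3 (-2.98, adjusted p = 0.16). Clock, the remaining activator, was at -0.52 ± 0.16 with no overlap and did not pass (adjusted p = 0.068). It passed without PH day 0 replicate 14 (-0.60, adjusted p = 0.034, and 0.033 to 0.25 over alternatives). Per3 had the largest positive value, 2.63 ± 0.34 (adjusted p = 0.0026). Per2 was at 1.91 ± 0.36 (adjusted p = 0.023), a call that ended in 6 of 8 fits with 1 library left out, namely without any of the olive oil replicates or PH day 0 replicate 13, 15 or 16 (1.82 to 1.96, adjusted p = 0.061 to 0.092, and 3.7e-17 to 0.092 over alternatives). Tef was at 1.77 ± 0.24 (adjusted p = 0.0065) and Nr1d2 at 0.79 ± 0.11 (adjusted p = 1.8e-04). The Nr1d2 call ended in the fit of all 4 groups (0.79, adjusted p = 0.13, and 3.5e-08 to 0.13 over alternatives). Dbp was at 2.22 ± 0.61 with no overlap and did not pass (adjusted p = 0.12), but passed without PH day 0 replicate 12 (1.91, adjusted p = 0.044), with DESeq2 (adjusted p = 0.021) and with limma-voom (adjusted p = 0.0031, and 0.0031 to 0.32 over alternatives). Nr1d1 was at -0.34 ± 0.12 (adjusted p = 0.11), lower in olive oil with no overlap, so that the values of the Rev-erb genes had opposite signs. Cry1 overlapped, at -0.35 ± 0.37 (adjusted p = 0.71).

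The summed markers of the groups in this comparison were 96702 to 106879.7 CPM in olive oil against 70358 to 88355 CPM at PH day 0 for hepatocytes, of which Alb rose, and 437 to 515 CPM in olive oil against 757 to 2048 CPM at PH day 0 for red blood cells, of which 2 of 5 fell. For 6 endothelial genes they were 91.4 to 99.8 CPM in olive oil and 136 to 177 CPM at PH day 0, with 2 of 6 lower. Their part in the clock gene differences was not tested.

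**Figure D4:**
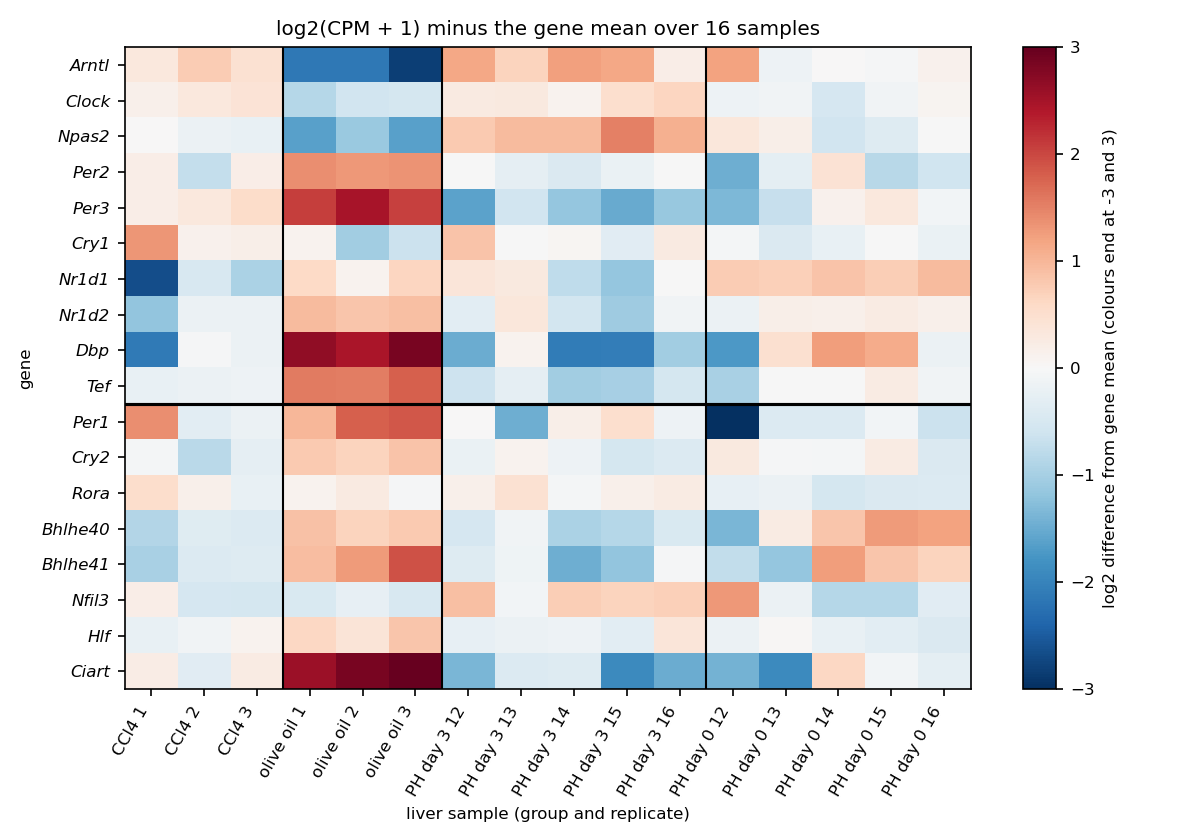
Members and other clock components (rows) in each liver (columns, by group), coloured by log2(CPM + 1) minus the mean of the gene over 16 livers, with colours ending at -3 and 3. The olive oil columns are the lowest for Arntl and the highest for Dbp, Tef and Per3.

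A further 20 clock components, such as kinases and ubiquitin ligases, were described as a list. After CCl4, 2 of 19 tested rose (all genes: 11.3%) and 6 fell (all genes: 11.6%), with a median of 0.04. The risen count was 5 with library size scaling. Among the fallen genes were Ciart, a repressor of the Arntl and Clock pair (-3.19 ± 0.28, adjusted p = 6.9e-05), Bhlhe40 (-1.34 ± 0.17), Cry2 (-1.19 ± 0.20), Bhlhe41 (-2.79 ± 0.52) and the D-box factor Hlf (-0.73 ± 0.16). The risen genes were Timeless (2.97 ± 0.40) and Tipin (1.43 ± 0.34), which encode partners at the DNA replication fork. Ciart averaged 2.92 ± 0.831 CPM in CCl4 and 25.9 ± 4.55 CPM in olive oil (SD, n = 3 each). Bhlhe41 had 2, 9 and 7 reads in the CCl4 livers, close to the floor of detection. The call of Hlf ended without olive oil replicate 3 (-0.62, adjusted p = 0.057, and 4.5e-04 to 0.4 over alternatives) and with library size scaling (-0.26). That of Tipin ended when replicate 2 or 3 of either group was left out (1.27 to 1.40, adjusted p = 0.052 to 0.058, and 0.0018 to 0.058 over alternatives). That of Bhlhe40 ended in the 4-group fit (-1.32, adjusted p = 0.066, and 3.0e-12 to 0.066 over alternatives). With library size scaling Bhlhe40 was at -0.86 and Cry2 at -0.77, both still called.

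At PH day 3, 1 of 16 tested components rose (all genes: 9.73%), Rora, an activator of Arntl (0.57 ± 0.12, adjusted p = 9.4e-04), which averaged 57.0 ± 7.35 CPM at PH day 3 and 38.6 ± 4.04 CPM at PH day 0 (SD, n = 5 each). The median was 0.12. The risen count was 2 without PH day 0 replicate 12, day 0 replicate 13 or day 3 replicate 16, and 3 with library size scaling. Between the responses, 1 of 20 differed in the positive direction (all genes: 1.47%), Timeless (2.11 ± 0.55), and 3 in the negative (all genes: 3.87%), among them Hlf (-0.83 ± 0.22) and Cry2 (-0.91 ± 0.26). The calls of Timeless, Hlf and Cry2 ended without 1 library in 5, 4 and 11 of 16 fits (1.77 to 2.12, -0.83 to -0.71 and -0.96 to -0.70). In olive oil against PH day 0, 5 of 18 were higher (all genes: 2.35%), and 2 without olive oil replicate 3. The 5 included Hlf (0.85 ± 0.14), Cry2 (0.75 ± 0.16), Ciart (3.86 ± 0.63) and Rora (0.48 ± 0.13). Ciart had 3, 0, 18, 11 and 6 reads in PH day 0 replicates 12 to 16, close to the floor of detection in replicates 12 and 13. Without olive oil replicate 3 the calls of Cry2 (0.71, adjusted p = 0.051) and Ciart (3.72, adjusted p = 0.072) ended, and Rora lost its call in 6 of 8 fits with 1 library left out (0.40 to 0.55, adjusted p = 0.062 to 0.17).

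Of 20 liver genes known to be under clock control, 5 fell (all genes: 11.6%) and 1 rose (all genes: 11.3%) after CCl4, with a median of -0.74. Without CCl4 replicate 1, 9 fell. The risen count was 0 to 2 over alternatives, with 0 without olive oil replicate 3 and 2 without CCl4 replicate 1 or 3. Upp2, a uridine phosphorylase, averaged 35.5 ± 19.2 CPM in CCl4 and 703 ± 80.8 CPM in olive oil (-4.33 ± 0.40, adjusted p = 2.5e-04). Gys2, the liver glycogen synthase, averaged 92.8 ± 11.5 CPM in CCl4 and 262 ± 47.7 CPM in olive oil (-1.51 ± 0.18, adjusted p = 4.1e-04). At PH day 3, 4 of 18 rose (all genes: 9.73%) and 2 fell (all genes: 8.01%), with Tspan4 at 0.90 ± 0.15 (adjusted p = 1.3e-04), Elovl3, a fatty acid elongase, at -1.75 ± 0.24 (adjusted p = 7.9e-04) and a median of 0.06. Between the responses 4 of 20 were lower (all genes: 3.87%), and 7 without CCl4 replicate 1, among them Upp2 (-3.71 ± 0.48) and Gys2 (-1.24 ± 0.21). In olive oil against PH day 0, 8 of 19 were higher (all genes: 2.35%) and 3 lower (all genes: 1.79%), with a median of 0.68. Without olive oil replicate 2, and likewise without olive oil replicate 3, 5 were higher and 1 lower. Usp2, a ubiquitin protease, averaged 49.0 ± 9.07 CPM in olive oil and 3.36 ± 1.32 CPM at PH day 0 (3.92 ± 0.24, adjusted p = 2.1e-09). Insig2, a brake on sterol synthesis, averaged 77.0 ± 13.0 CPM in olive oil and 199.7 ± 26.4 CPM at PH day 0 (-1.37 ± 0.13), a call that ended in the 4-group fit (adjusted p = 0.13, and 1.7e-27 to 0.13 over alternatives).

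Lists that bear on other daily signals were described in the same way, and most of their counts moved with the settings. Of 11 glucocorticoid responsive genes, 2 fell after CCl4 (all genes: 11.6%), Klf15 (-1.28 ± 0.22) and Dusp1 (-0.74 ± 0.24), and 0 rose (all genes: 11.3%). The median over the list was 1.27, against 0.01 over all genes, so these 2 genes do not stand for the list. Without CCl4 replicate 1, 5 fell, and the call of Dusp1 ended without any 1 of 5 libraries, CCl4 replicates 2 and 3 and each olive oil replicate (-0.82 to -0.63, adjusted p = 0.074 to 0.16). At PH day 3, 3 of the 11 rose (all genes: 9.73%), among them Sgk1 (1.33 ± 0.25) and Zbtb16 (1.00 ± 0.28). With DESeq2, 6 rose and 1 fell, and in the 4-group fit 0 rose and 1 fell. The call of Sgk1 ended in the 4-group fit (1.32, adjusted p = 0.11, and 3.0e-12 to 0.11 over alternatives). That of Zbtb16 ended without day 3 replicate 12 (0.82, adjusted p = 0.054), with limma-voom and in the 4-group fit (0.84 to 0.99, adjusted p = 0.072 to 0.36). Between the responses 1 of the 11 was lower (all genes: 3.87%), Klf15 (-1.02 ± 0.23), with 3 genes lower without CCl4 replicate 1. In olive oil against PH day 0, 1 was higher (all genes: 2.35%), also Klf15 (0.56 ± 0.12), a call that ended without olive oil replicate 3 (0.45, adjusted p = 0.1). Of 12 temperature responsive genes, 1 rose at PH day 3 (all genes: 9.73%), Hsp90aa1 (0.47 ± 0.16), and 1 fell (all genes: 8.01%), Cirbp (-0.62 ± 0.18). The Hsp90aa1 call ended in 7 of 10 fits with 1 library left out, all but those without PH day 0 replicate 12 or 13 or day 3 replicate 14 (0.35 to 0.48), and that of Cirbp without day 0 replicate 13 or day 3 replicate 12 (-0.52 to -0.47). After CCl4, edgeR, DESeq2 and limma-voom each called 0 of the 12, and 3 had an unadjusted edgeR p under 0.05. With edgeR 4 rose with library size scaling, 2 without CCl4 replicate 1, 1 without olive oil replicate 3, 1 without a filter and 1 in the 4-group fit. Between the responses 0 passed with these tools (2 at an unadjusted edgeR p under 0.05), and 1 passed with library size scaling, without PH day 0 replicate 12 or without PH day 3 replicate 13. In olive oil against PH day 0, 0 passed with any of them (1 at an unadjusted edgeR p under 0.05).

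Pdk4, which spares glucose in fasting, rose after CCl4 (4.17 ± 0.76, adjusted p = 0.009), from 0.219 to 2.25 CPM in olive oil livers, close to the floor of detection. With edgeR, 1 of 15 feeding and fasting genes, Pdk4, rose (all genes: 11.3%) and 0 fell (all genes: 11.6%), while 5 had an unadjusted p under 0.05. Both counts depended on the setting. The Pdk4 call was lost when olive oil replicate 3 was left out (4.25, adjusted p = 0.052) and with limma-voom (4.25, adjusted p = 0.059, and 2.1e-14 to 0.059 over alternatives). The fallen count was 4 with DESeq2, 3 with limma-voom, 3 in the 4-group fit, 4 without CCl4 replicate 1, and 1 without a filter or without CCl4 replicate 3, olive oil replicate 1 or olive oil replicate 2. At PH day 3, 3 of 15 rose (all genes: 9.73%), among them Irs2 (1.39 ± 0.28) and Acaca (0.72 ± 0.17). There 1 fell (all genes: 8.01%), or 3 without PH day 0 replicate 12. In olive oil against PH day 0, 0 of 15 passed with edgeR, 5 had an unadjusted p under 0.05, and DESeq2 and limma-voom called 2 each. Leaving out olive oil replicate 2 or PH day 0 replicate 14 or 16 gave 1 higher gene there, and leaving out PH day 0 replicate 13 gave 2. Between the responses, each of edgeR, DESeq2 and limma-voom called 0, and 3 had an unadjusted edgeR p under 0.05, while 2 were lower without CCl4 replicate 1 and 1 without CCl4 replicate 3.

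Of 10 growth hormone signalling and hepatocyte factor genes, 4 fell after CCl4 (all genes: 11.6%), among them the growth hormone receptor Ghr (-1.80 ± 0.25) and the bile acid receptor Nr1h4 (-0.99 ± 0.15), and 3 fell at PH day 3 (all genes: 8.01%), among them Ghr (-0.65 ± 0.09) and Cebpa (-0.64 ± 0.12). Between the responses 2 were lower (all genes: 3.87%), Ghr (-1.11 ± 0.21) and Nr1h4 (-0.88 ± 0.19), and 4 genes were lower without CCl4 replicate 1. Both calls ended with library size scaling, Ghr at -0.79 (adjusted p = 0.089, and 3.0e-05 to 0.089 over alternatives) and Nr1h4 at -0.61 (adjusted p = 0.079, and 6.7e-04 to 0.079 over alternatives). In olive oil against PH day 0, 2 of 10 were higher (all genes: 2.35%), Nr1i3 (2.00 ± 0.24) and Nr1h4 (0.47 ± 0.12). The Nr1h4 call ended in 6 of 8 fits with 1 library left out (0.42 to 0.48, adjusted p = 0.05 to 0.093).

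The genes whose pattern was most like that of Dbp, by Pearson's r of log2(CPM + 1) over the 16 livers among 9326 genes, were Bnip3 (r = 0.88), Gys2 (r = 0.88), Sord (r = 0.87), Rnf13 (r = 0.87) and Fgfrl1 (r = 0.87). Bnip3, which acts in mitophagy, averaged 25.6 CPM in CCl4, 64.3 CPM in olive oil, 22.7 CPM at PH day 3 and 30.4 CPM at PH day 0. Among those most like Arntl were St5 (r = 0.93), Faf2 (r = 0.91), Asap2 (r = 0.91) and Mical2 (r = 0.90). St5 averaged 54.4 CPM in CCl4, 17.1 CPM in olive oil, 79.5 CPM at PH day 3 and 47.9 CPM at PH day 0. These values are descriptions with no test: the livers share their groups and libraries, and the olive oil livers stand apart for Dbp and Arntl.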

How the data were processed

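Polyadenylated RNA of 16 snap-frozen liver samples was sequenced, per the labels' protocols. The files the authors deposited hold unnormalized counts per gene for each sample, made with featureCounts 1.6.2 over the exons of Ensembl release 95 (GRCm38), reverse-stranded, per the file headers. STAR 2.5.1 and Subread are listed, with no settings, per the submitters' processing notes. Symbols and coordinates came from GENCODE M21 (54723 of 54838 identifiers had a symbol).

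Testing used the robust quasi-likelihood F test of edgeR 4.0.16 (R 4.3.3) with TMM factors, on genes kept by filterByExpr at a count of 10 and a total of 15. A gene was called at a Benjamini-Hochberg adjusted p, over all genes tested, under 0.05. CCl4 with olive oil, PH day 3 with PH day 0 and olive oil with PH day 0 were compared in separate fits of their own samples, and the difference of the responses in 1 fit of all 4 groups. The SE was taken as |log2 fold change| over the root of F. CPM use TMM factors over all 16 samples, and RPKM divide them by the exon length in the files. The difference of any 2 replicates was larger than sampling noise (chi-square per degree of freedom 5.51 to 72.3). The labels do not state separate animals for each sample, so p-values reflect the spread of these samples, which may be technical. Intervals and floors cover counting error only.

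The members, gene lists, markers and tests were chosen with earlier results of these data known. Named were every member, the 2 called genes of smallest adjusted p per list and comparison, all called genes among other clock components, and the 5 genes most correlated with Dbp and with Arntl at a mean CPM of at least 5. A few genes that this rule names are not reported here. Alternatives were DESeq2 size factors, library size scaling, DESeq2 1.42.0, limma-voom (limma 3.58.1), no filter, a filter of 1 CPM, a 4-group fit, leaving out each sample, and the replicate number as a block. In simulated data, genes changed 2-fold were called in 37.3% of cases for CCl4 against olive oil (11337 genes), 68.7% for PH (10546 genes), 23.9% for the difference (11868 genes) and 62.7% for olive oil against PH day 0 (10746 genes). Each simulation changed 67 genes 1.5-fold, 67 genes 2-fold and 66 genes 4-fold. It gave 99 calls for CCl4 against olive oil and 143 for PH, against 2599 and 1871 in the data. Because far fewer genes changed than in the data, these shares need not hold there. Promoters came from a RefSeq table (GRCm38.p6). Figures and tables came from Python 3.11.15, pandas 2.3.3 and matplotlib 3.10.9.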

Additional observations from a re-analysis of the deposited data

Results flagged for a closer look

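In the PH day 0 group, replicate 12 had 26.9 CPM of Arntl, far above the other 4 livers at 9.91 to 12.3 CPM, a gap of 0.857 of the whole range (critical value 0.71). The same liver had 43.0 CPM of Nr1d2, below the others at 54.1 to 58.5 CPM, a gap of 0.714 of the range. Of 20 sets of 5 livers looked at, 2 had such a far sample, and chance gives about 1 in 20.

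The responses to CCl4 and to PH differed by the test of the difference itself for Arntl (2.92 on the log2 scale), Per2 (-1.78) and Tef (-1.27). The olive oil livers enter each of these differences.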

How the results depend on the processing

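No member changed direction under any alternative. Genes called ranged over 1492 to 3513 for CCl4 against olive oil, 384 to 931 for the difference of the responses and 181 to 447 for olive oil against PH day 0 with 1 library left out, against 2599, 633 and 445 with all libraries. For olive oil against PH day 0 they numbered 777 without a filter and 287 in the 4-group fit. Members called for PH day 3 against day 0 were 6 without a filter and 2 to 5 with 1 library left out, against 3. Members called for the difference were 1 with library size scaling, 1 without a filter and 1 to 4 with 1 library left out, against 3. The cause was not tested. With the replicate number as a block, 4 members and 1864 genes were called for PH, and Arntl passed at 0.69 (adjusted p = 0.025). The numbers were not shown to pair livers: same-numbered livers correlated at 0.049, -0.0148, -0.0482, 0.0757 and 0.112 in their deviations from the group means over 10546 genes. The block changed no other member's call. Depth limits Npas2 in olive oil (2 reads) most.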
